A study of Homo sapiens with 6 samples.

Results

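A set of 8 genes of the liver and gut was followed from LNCaP cells to their enzalutamide-resistant derivative, LNCaP-enzaR. The genes were A1CF, the transcription factors HNF4A, HNF4G, FOXA2 and FOXA3, and the secreted proteins SPINK1, SERPINA1 and APOB. They were taken by symbol from a table of 35554 genes, which holds a row for 7 of them. FOXA2 has no row in the table used here and was not analysed. The genes were picked with the comparison of both lines already known, the difference in A1CF above all, so their values are given as a description and without a test. Of the 7, 4 passed the filter on low counts that 19711 genes passed in all, and HNF4A, FOXA3 and APOB did not.

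LNCaP is an established line from a metastasis of human prostate carcinoma that responds to androgens, and enzalutamide is an inhibitor of androgen signalling given to patients. The study selected LNCaP-enzaR by growing LNCaP in the drug without a break, and afterwards kept the line in the drug at a lower concentration. Whether the drug was present at harvest is not stated in the sources used here. Effects of continued drug exposure and of resistance therefore cannot be told apart. Each line was represented by 3 libraries, labelled as biological replicates and grown in separate flasks, so the spread between them is that of flasks of 1 line with 1 selection history, not of independent selections. LNCaP-enzaR replicate 1 stood apart, since its counts differed from those of the other LNCaP-enzaR replicates by a chi-square of 35.6 and 28.2 per degree of freedom, against 5.56 to 9.06 for every other pair within a line. Leaving it out took HNF4G to a log2 fold change of 1.23, turned that of SERPINA1 to -0.44 and ended the calls of DGAT2 and NR1I3, and changed no other call among the 54 genes followed under the alternatives. Messenger RNA was sequenced as paired-end reads, and the libraries held 77759122 to 98616465 counts. At this depth 3 counts corresponded to 0.0302 to 0.0382 CPM, the counts of a gene scaled to 1000000 counts per TMM-scaled library, and such floors cover counting error only. Mitochondrial genes took 6.72% to 7.06% of the counts in LNCaP and 14.75% to 15.53% in LNCaP-enzaR, and their part in the values below was not tested. The 14 markers of LNCaP cells were all detected and summed to 6151 to 6252 CPM in LNCaP and 5387 to 5474 CPM in LNCaP-enzaR. By the threshold given below, 3 of them rose and 7 fell (71.4%, against 42.7% of all tested genes), with a median log2 fold change of -0.24. These are bulk libraries, in which fewer cells expressing a gene and less RNA per cell cannot be told apart.

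In liver, gut and pancreas, HNF4 and HNF1 factors and the FOXA pioneer factors bind one another's promoters and switch on genes for secreted proteins, lipoproteins and metabolism. HNF4A is the main HNF4 factor of hepatocytes and HNF4G its close relative in the intestine, whereas prostate epithelium relies on FOXA1 among the FOXA factors. In prostate cancer, genes of this gastrointestinal type, SPINK1 among them, are known to appear in some castration-resistant tumours. A1CF binds APOB messenger RNA and directs the deaminase APOBEC1 to the base that is edited in the intestine.

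A1CF (ENSG00000148584.15, chr10:50799409-50885675 on GRCh38, minus strand) was at the floor in LNCaP and clearly above it in LNCaP-enzaR. It had 0, 2 and 1 counts in LNCaP replicates 1 to 3 and 1005, 1183 and 1304 counts in LNCaP-enzaR replicates 1 to 3. The groups did not overlap, which also held for 70.6% of all tested genes in either direction. In LNCaP-enzaR the level was 12.7 ± 0.945 CPM (SD, n = 3), which was at least 333-fold higher than 3 counts in the parental library with the highest floor. Per length, its level in LNCaP-enzaR was 1.33 CPM per kb of exon, ranging from 1.21 to 1.40 over the libraries, and 45% of the tested genes had a lower one. In LNCaP 0.696% of the tested genes did. Exons of another gene covered 3.94% of its exonic bases, and ASAH2B, which overlaps it on the opposite strand, did not pass the threshold.

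**Figure D1:**
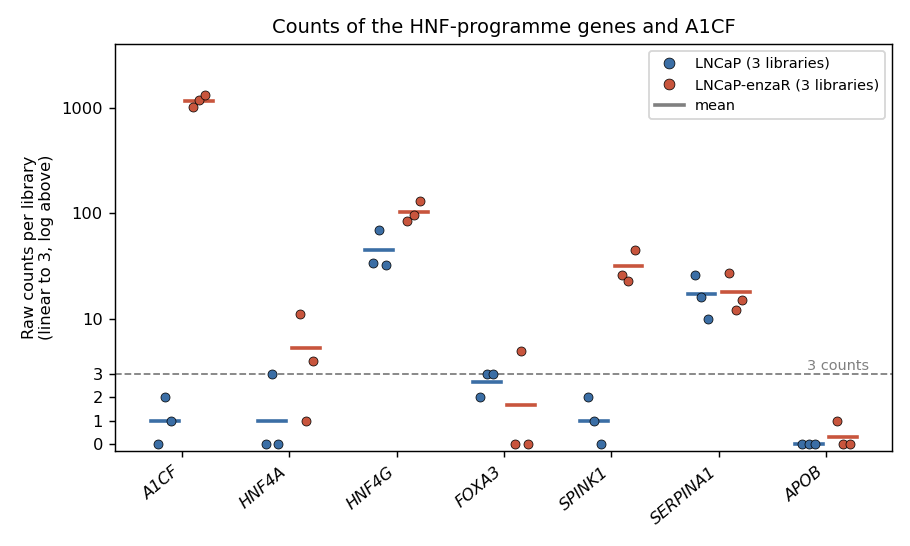
Raw counts (vertical axis, linear to 3 and logarithmic above) of the 7 genes with a row in each of 3 LNCaP libraries (blue) and 3 LNCaP-enzaR libraries (red), with horizontal bars for the means and a dashed line at 3 counts. A1CF, SPINK1 and HNF4G had no overlap between the lines, while SERPINA1, HNF4A, FOXA3 and APOB overlapped.

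The promoter of A1CF is shown because it holds letters of the factors that give the gene set its name. It is the RefSeq promoter on GRCh38.p14 (chr10:50885578-50885877, minus strand), from 250 bases before to 50 bases after the annotated start. Capitals mark matches to HNF1 letters (GTTAA and its reverse complement, with any 3 bases between them), HNF4 letters (GGNC repeated in the same direction with 3 A bases between the copies, where N is any base) and FOX letters (TNTTTAC). All of them were chosen after these promoters had been read, and both strands were searched.

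A1CF promoter: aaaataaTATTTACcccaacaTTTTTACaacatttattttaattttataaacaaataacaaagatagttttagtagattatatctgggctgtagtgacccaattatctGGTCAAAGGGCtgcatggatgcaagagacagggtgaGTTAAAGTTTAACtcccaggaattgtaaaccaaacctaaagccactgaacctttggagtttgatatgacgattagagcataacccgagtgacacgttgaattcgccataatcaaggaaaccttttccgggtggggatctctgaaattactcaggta

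The HNF1 letters lay at bases -106 to -94 from the start and the HNF4 letters at -142 to -132. FOX letters lay at -243 to -237 and at -229 to -223, and TATAAA matched at -207 to -202 on the minus strand and, overlapping it, at -205 to -200 on the plus strand. Among 35116 RefSeq promoters of the same length, 14 (0.0399%) held the HNF1 letters, 185 (0.527%) the HNF4 letters, 3792 (10.8%) the FOX letters and 4049 (11.5%) TATAAA. The half-site of androgen response elements, AGAACA, was in 5192 (14.8%) of them and in none of the promoters of the 8 genes that were read. A1CF was the only gene with exact matches to both HNF1 and HNF4 letters. The letters were chosen with its promoter in view, so nothing is read from that or from how rare they are. A match describes letters, not binding.

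The promoters of SPINK1 (chr5:147831622-147831921, minus strand) and of the second annotated start of SERPINA1 (chr14:94388553-94388852, minus strand) are shown beside it as those of the secreted proteins that were detected.

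SPINK1 promoter: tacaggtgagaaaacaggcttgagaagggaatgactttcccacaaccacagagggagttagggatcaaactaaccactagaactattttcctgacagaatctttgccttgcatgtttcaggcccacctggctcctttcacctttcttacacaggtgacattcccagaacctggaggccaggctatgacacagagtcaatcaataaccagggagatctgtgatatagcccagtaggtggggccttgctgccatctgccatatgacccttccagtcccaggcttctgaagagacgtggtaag

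SERPINA1 promoter: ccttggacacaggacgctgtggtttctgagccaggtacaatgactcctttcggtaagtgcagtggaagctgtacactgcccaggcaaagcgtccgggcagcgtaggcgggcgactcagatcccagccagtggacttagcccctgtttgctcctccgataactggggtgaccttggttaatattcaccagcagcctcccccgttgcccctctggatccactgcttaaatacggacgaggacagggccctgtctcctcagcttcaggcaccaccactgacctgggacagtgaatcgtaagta

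Neither held an exact match to the letters searched for, which says only that exact matches are not in these windows. The same held for the other start of SERPINA1 and for both starts of HNF4A, whereas FOXA3 held TATAAA at -30 to -25. Sequences close to the HNF1 letters were not counted. Examples are gttaatattcacc in the SERPINA1 promoter shown, and gttactctttaac and attaaccattaac at the first and second starts of HNF4A. Promoters were read for 5 of the 8 genes, 7 promoters in all. Those of HNF4G, FOXA2 and APOB were not read, so nothing is said of their letters.

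**Figure D2:**
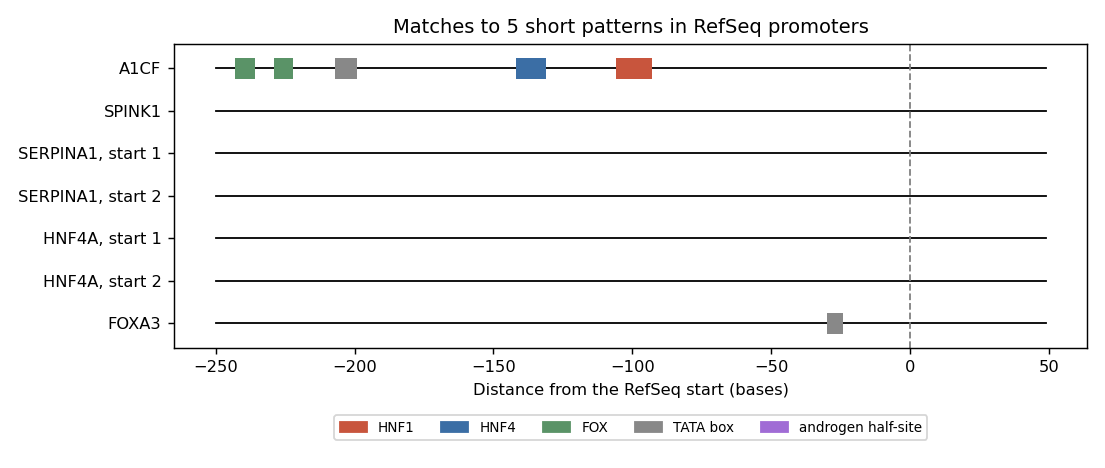
Positions of matches (coloured blocks) along 7 RefSeq promoters of 5 genes, with distance from the annotated start in bases on the horizontal axis and the start as a dashed line. A1CF carried exact HNF1, HNF4, FOX and TATAAA matches, FOXA3 a TATAAA match, and the other promoters no exact match.

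The letters were also looked up in other tested genes. Of the 14 genes with HNF1 letters, 5 were tested. A1CF was the only 1 of them past the threshold, which was an adjusted p of at most 0.05 (edgeR) and a change of at least 1.5-fold. The log2 fold changes (log2FC, LNCaP-enzaR over LNCaP) of the others were -0.49 for CTPS1, 0.26 for LRRC31, -0.42 for VWA5B2 and -0.20 for ZBTB38. Of 97 tested genes with HNF4 letters, 42.3% were past the threshold, against 42.7% of all tested genes, and for 1205 genes with FOX letters the share was 44.8%.

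HNF4A (ENSG00000101076.18, chr20:44355700-44434596), the main HNF4 factor of liver, had 0, 3 and 0 counts in LNCaP and 11, 1 and 4 counts in LNCaP-enzaR. The groups overlapped, and the gene did not pass the filter. Summed over each line, its counts gave 95% Poisson intervals of 0.00236 to 0.0335 CPM in LNCaP and 0.0334 to 0.0949 CPM in LNCaP-enzaR, which cover counting error only. Its antisense neighbour HNF4A-AS1 reached at most 3 counts in any library.

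HNF4G (ENSG00000164749.13, chr8:75407914-75566834), its relative of the gut, had 34, 69 and 32 counts in LNCaP and 85, 96 and 130 counts in LNCaP-enzaR. The groups did not overlap, although LNCaP replicate 2 lay nearer to the resistant libraries than its 2 companions did. Its level was 0.511 ± 0.215 CPM in LNCaP and 1.13 ± 0.166 CPM in LNCaP-enzaR (SD over the 3 libraries), which was a log2FC of 1.14 with an SE of 0.29, or 2.20-fold. Per length, HNF4G stood at 0.235 CPM per kb in LNCaP-enzaR, where 22.1% of the tested genes were lower, against 15.7% in LNCaP.

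FOXA3 (ENSG00000170608.3, chr19:45863989-45873797), a FOXA factor of liver and gut, had 2, 3 and 3 counts in LNCaP and 0, 5 and 0 counts in LNCaP-enzaR, with overlapping groups. Neither line held it clearly above the floor. FOXA1, the FOXA factor of prostate, was among the highest genes of both lines instead. It stood at 439.5 ± 1.70 CPM in LNCaP and 424.3 ± 8.28 CPM in LNCaP-enzaR, a log2FC of -0.05 (SE 0.05, adjusted p = 0.378 by edgeR) whose sign turned to 0.05 under upper-quartile scaling.

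SPINK1 (ENSG00000164266.11, chr5:147824572-147831671), a secreted trypsin inhibitor, had 2, 1 and 0 counts in LNCaP and 26, 23 and 45 counts in LNCaP-enzaR. The groups did not overlap, yet the resistant level was low, 0.338 ± 0.102 CPM (SD, n = 3). It was at least 8.86-fold higher than 3 counts in LNCaP. Of its 9 listed relatives, 5 had a row and 2 were tested, and both rose by edgeR, as did 23.3% of all tested genes: SPINK2 by a log2FC of 1.91 (SE 0.47, adjusted p = 0.00236) and SPINK8 by 2.54 (SE 0.62, adjusted p = 0.00245). Neither SPINK2 nor SPINK8 reached 1 CPM or was tested once 10 or more counts were required throughout, and both were named after their values were seen.

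SERPINA1 (ENSG00000197249.14, chr14:94376747-94390693), the antitrypsin of plasma, had 26, 16 and 10 counts in LNCaP and 27, 12 and 15 counts in LNCaP-enzaR. The groups overlapped throughout. The levels were 0.195 ± 0.0785 and 0.200 ± 0.0981 CPM, a log2FC of 0.02 with an SE of 0.52, and leaving out single libraries moved it from -0.44 to 0.38. The 6 other genes of the serpin A cluster on its chromosome that had a row reached at most 13 counts in any library, and none was tested.

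APOB (ENSG00000084674.15, chr2:21001429-21044073), the protein of very low density lipoproteins and chylomicrons and the known editing target of A1CF, had 0 counts in each LNCaP library. In LNCaP-enzaR it had 1, 0 and 0 counts. The 3-count floor over the LNCaP libraries together was 0.0115 CPM, and the 95% Poisson interval of 0 counts reached 0.0141 CPM. The transcript was therefore not detectable above the floor in either line.

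Of the 4 tested genes, 3 passed the threshold, all higher in LNCaP-enzaR, where 42.7% of all tested genes passed it and 23.3% did so higher. The genes were chosen on this contrast, so nothing is read from that count. HNF4G was the only 1 of the 3 with more than 3 counts in any LNCaP library, and 1.39% of the tested genes passed higher from at most 3 counts in each LNCaP library. In LNCaP the order per length was HNF4G (0.107 CPM per kb), SERPINA1 (0.0397), FOXA3 (0.0146), SPINK1 (0.00799), A1CF (0.00121), HNF4A (0.00108) and APOB (0), of which those from FOXA3 down lay at or under 3 counts in each library. In LNCaP-enzaR it was A1CF (1.33 CPM per kb), SPINK1 (0.249), HNF4G (0.235), SERPINA1 (0.0408), FOXA3 (0.00888), HNF4A (0.00587) and APOB (0.000261). The ranges of SPINK1 and HNF4G overlapped there, from 0.191 to 0.333 and from 0.205 to 0.273 CPM per kb. With HNF4A, FOXA3 and APOB at or near the floor in both lines, the counts do not show an HNF programme as a whole, and the genes are described singly.

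The partners that A1CF would need for editing were next examined. APOBEC1, the deaminase, has no row in the table used here. RBM47, an RNA-binding protein that can also serve as its cofactor, stood at 76.8 ± 1.24 CPM in LNCaP and 82.0 ± 2.38 CPM in LNCaP-enzaR (log2FC 0.10, SE 0.06, adjusted p = 0.144 by edgeR). Of 20 listed relatives and editing enzymes, 10 were tested, of which 2 rose and 5 fell (70% past the threshold, against 42.7% of all tested genes), with a median log2FC of -0.45 beside 0.01 over all tested genes. With 10 or more counts required throughout, 0 rose and 5 fell of 8 tested. SYNCRIP, an RNA-binding protein of the same editing complex, fell from 107.2 ± 5.22 to 48.4 ± 7.12 CPM (log2FC -1.15, SE 0.09, adjusted p = 4.42e-08). Its relative HNRNPR fell from 263.4 ± 2.72 to 134.8 ± 3.95 CPM (-0.97, SE 0.05, adjusted p = 6.31e-10). Among the antiviral deaminases, APOBEC3F fell (-5.02, SE 0.20, adjusted p = 3.42e-11) and APOBEC3H rose (2.63, SE 0.38, adjusted p = 2.41e-05). The APOBEC3 genes are close copies of one another and their counts are uncertain, and exons of another gene covered 27.1% of the exonic bases of SYNCRIP.

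Other transcription factors of liver and gut moved in both directions. Of 32 listed factors 19 were tested, and 4 rose and 7 fell by edgeR (57.9% past the threshold, against 42.7% of all tested genes), with a median log2FC of 0.28.

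NR5A2, a nuclear receptor of liver and pancreas, had 13, 6 and 12 counts in LNCaP and 112, 156 and 133 counts in LNCaP-enzaR (log2FC 3.61, SE 0.33, adjusted p = 2.01e-07). CEBPA, a factor of hepatocyte differentiation, rose from 21.9 ± 1.38 to 89.6 ± 6.02 CPM (2.03, SE 0.07, adjusted p = 9.42e-12), and exons of another gene covered 43.9% of its exonic bases. The epithelial ETS factor ELF3 rose from 15.1 ± 0.701 to 29.9 ± 1.56 CPM (0.99, SE 0.07, adjusted p = 2.14e-08), with 18.5% of its exonic bases so covered. ONECUT1, or HNF6, rose at low counts, from 20, 4 and 9 to 40, 54 and 60.

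Both COUP-TF receptors, which can bind HNF4 sites, were lower. NR2F2 dropped from 91.5 ± 3.71 to 20.2 ± 1.65 CPM (log2FC -2.18, SE 0.07, adjusted p = 4.27e-12) and its relative NR2F1 from 2.38 ± 0.173 to 0.329 ± 0.148 CPM (-2.87, SE 0.28, adjusted p = 4.46e-07). SOX9, a factor of progenitor cells in gut and liver, had 213, 261 and 197 counts in LNCaP and 5, 12 and 6 counts in LNCaP-enzaR (-4.90, SE 0.29, adjusted p = 2.3e-09). CDX2, the intestinal master factor, had 24, 7 and 6 counts in LNCaP and 0 in each LNCaP-enzaR library, and was not tested.

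**Figure D3:**
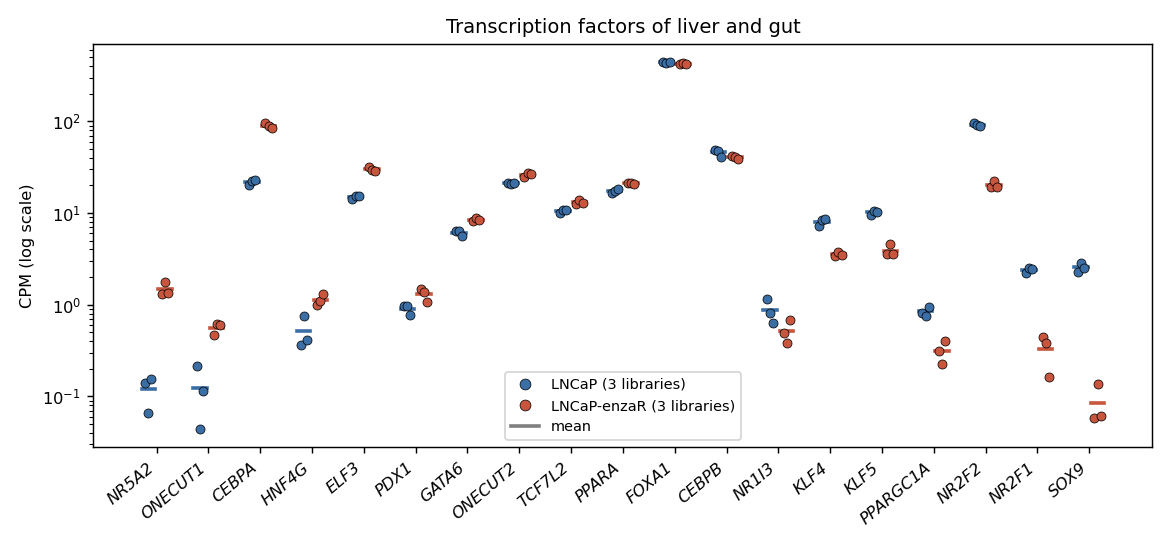
CPM on a log axis of HNF4G and other factors of liver and gut that passed the filter, in 3 LNCaP (blue) and 3 LNCaP-enzaR (red) libraries with bars at the means, ordered by log2FC. NR5A2 and CEBPA lay higher and NR2F1, NR2F2 and SOX9 lower in LNCaP-enzaR without overlap, and FOXA1 was nearly level.

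Genes that HNF factors are known to drive in liver were split in direction. Of 40 listed secreted proteins of hepatocytes 19 were tested, and 7 rose and 9 fell (84.2% past the threshold, against 42.7% of all tested genes), with a median log2FC of -0.42. Most were low, and 3 rose and 2 fell of 7 tested once 10 or more counts were required throughout. TTR, the carrier of thyroxine and retinol-binding protein, had 311, 349 and 281 counts in LNCaP and 10206, 8493 and 9394 counts in LNCaP-enzaR. This was a rise from 3.59 ± 0.239 to 103.0 ± 13.2 CPM (log2FC 4.84, SE 0.10, adjusted p = 6.28e-14 by edgeR). ALB, or albumin, went the other way, from 7.92 ± 0.639 to 0.691 ± 0.128 CPM (-3.51, SE 0.15, adjusted p = 6.6e-11). Coagulation factor F5 fell by 6.19 on the log2 scale (SE 0.32, adjusted p = 4.98e-10) and FGL1, a fibrinogen-like hepatokine, by 3.48 (SE 0.36, adjusted p = 7.66e-07). In LNCaP-enzaR F5 and FGL1 stood at 0.0564 ± 0.0321 and 0.107 ± 0.0384 CPM, low levels that leave the sizes of these falls uncertain. Ceruloplasmin, CP, rose by 3.09 (SE 0.35, adjusted p = 1.95e-06) and angiotensinogen, AGT, by 1.57 (SE 0.25, adjusted p = 6.85e-05), with 20.1% and 10.1% of their exonic bases in exons of another gene.

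Markers of hepatocytes as a cell type summed to 43.0 to 45.0 CPM in LNCaP and 138.8 to 159.5 CPM in LNCaP-enzaR, and 2 of the 10 were at or under 3 counts in every library. TTR made up most of the resistant sum, and albumin was lower there. The 10 intestinal markers summed to 9.32 to 10.3 and 16.9 to 21.1 CPM, nearly all of it SI. Fibroblast markers summed to 14.7 to 17.9 and 8.24 to 9.03 CPM, leukocyte markers to 0.255 to 0.864 and 0.215 to 0.325 CPM and basal prostate markers to 56.8 to 59.8 and 28.5 to 34.0 CPM, and their part in the results was not tested.

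Lipoprotein genes, in whose particles APOB would be packed, were also mixed. Of 28 listed, 16 were tested, with 3 higher, 5 lower and a median log2FC of 0.15, so that the share past the threshold (50%) was near that of all genes (42.7%). The split was 5 and 5 under DESeq2 and under upper-quartile scaling, and 4 higher and 3 lower with 10 or more counts required throughout. MTTP, which loads lipid onto APOB, had 1, 1 and 3 counts in LNCaP and 16, 14 and 8 counts in LNCaP-enzaR and was not tested. APOA5, a regulator of plasma triglycerides, rose from 0.173 ± 0.0821 to 1.00 ± 0.220 CPM (2.55, SE 0.36, adjusted p = 1.97e-05 by edgeR). DGAT2, a triglyceride synthase, rose from 48.5 ± 1.54 to 72.9 ± 5.98 CPM (0.59, SE 0.07, adjusted p = 2.72e-06), at the fold limit. The sorting receptor SORT1 fell from 35.9 ± 0.978 to 18.7 ± 1.52 CPM (-0.94, SE 0.07, adjusted p = 4.11e-08). CIDEB, a lipid droplet protein whose exonic bases all lie in exons of another gene, had a log2FC of -1.76 (SE 0.29, adjusted p = 8.25e-05).

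Of 39 listed genes of hepatic metabolism, 18 were tested, and 10 rose and 2 fell (66.7% past the threshold), with a median log2FC of 0.86. Of all tested genes 42.7% passed, 23.3% higher and 19.5% lower. Once 10 or more counts were required throughout, 6 rose and 1 fell of 11 tested. ASS1, the argininosuccinate synthase of the urea cycle, rose from 57.2 ± 3.04 to 279.8 ± 27.8 CPM (2.29, SE 0.07, adjusted p = 3.91e-12 by edgeR). The acetyltransferase NAT2 rose by 2.87 (SE 0.25, adjusted p = 1.54e-07) and the drug-oxidising CYP3A5 by 1.15 (SE 0.14, adjusted p = 4.9e-06), both of families whose copies may share reads. ABCB11, the bile salt export pump, had 1429, 1295 and 987 counts in LNCaP and 4, 2 and 16 counts in LNCaP-enzaR. It fell by 7.43 on the log2 scale (SE 0.25, adjusted p = 6.56e-12) and fell by 8.62 when LNCaP-enzaR replicate 3 was left out. HGD, of tyrosine breakdown, fell by 0.78 (SE 0.11, adjusted p = 3e-05).

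Of 32 listed gut epithelial genes, 14 were tested, and 5 rose and 5 fell (71.4% past the threshold, against 42.7% of all tested genes), with a median log2FC of -0.19. Under the same stricter filter 1 rose and 4 fell of 7 tested. SI, the sucrase of the brush border, had 918, 832 and 712 counts in LNCaP and 1373, 1547 and 2026 counts in LNCaP-enzaR (0.94, SE 0.10, adjusted p = 8.1e-07 by edgeR). The glucose transporter SLC5A1 rose from 7, 17 and 6 to 153, 138 and 149 counts (3.80, SE 0.33, adjusted p = 1.28e-07). AGR2, a disulphide isomerase of mucus-secreting cells, fell from 72.4 ± 1.87 to 1.57 ± 0.144 CPM (-5.53, SE 0.09, adjusted p = 3.72e-15), and the gastric mucin MUC5AC fell by 1.81 (SE 0.24, adjusted p = 1.39e-05).

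**Figure D4:**
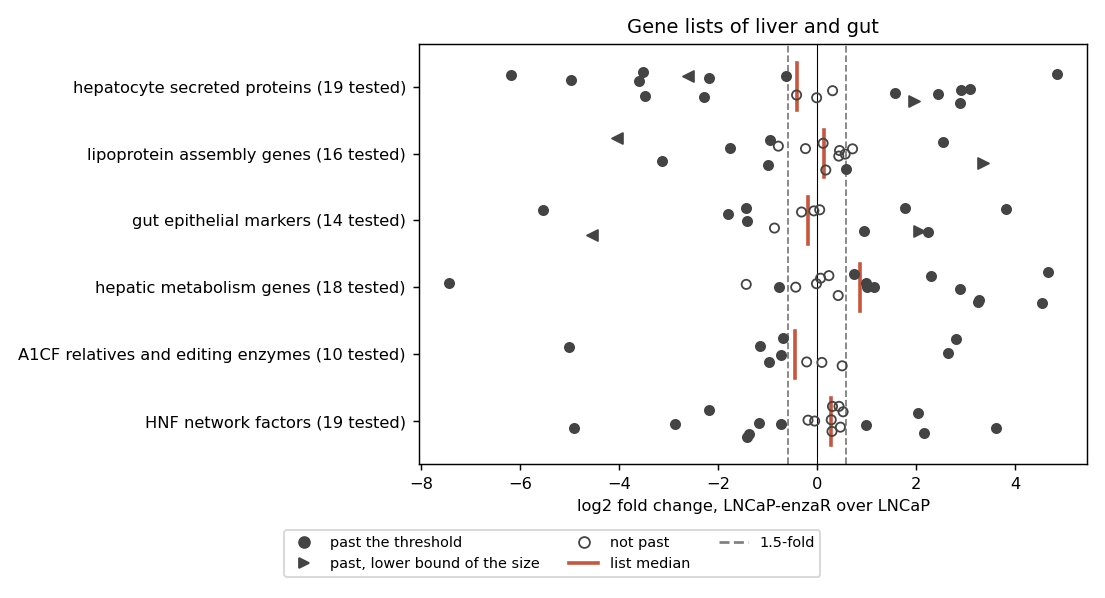
Log2FC (LNCaP-enzaR over LNCaP) of every tested gene of 6 lists, with filled symbols past the threshold, triangles for lower bounds and red bars at the list medians. Changes in both directions were present in each list, and hepatic metabolism had the highest median (0.86).

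The surroundings of A1CF on chromosome 10 were examined by the 3 nearest tested protein-coding genes with a symbol on either side. Tested genes of other kinds were left out. ASAH2, SGMS1 and ASAH2B on one side had log2FC values of 0.20, -0.25 and 0.09 and did not pass the threshold. On the other side PRKG1 (chr10:50990888-52298423), a cGMP-dependent protein kinase, had 18, 2 and 15 counts in LNCaP and 746, 905 and 997 counts in LNCaP-enzaR. It rose by a log2FC of 6.16 (SE 0.27, adjusted p = 8.79e-11 by edgeR). CSTF2T, which lies within the span of PRKG1, had a log2FC of 0.04 and did not pass, and PCDH15 farther out rose by 4.01 (SE 0.46, adjusted p = 2.75e-06) at low counts.

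Around the 7 genes together, 42 such neighbours were tested, of which 17 rose and 6 fell (54.8%, against 42.7% of all tested genes). Their median log2FC was 0.32. Near FOXA3, the splicing factor NOVA2 had 0, 4 and 1 counts in LNCaP and 98, 131 and 109 counts in LNCaP-enzaR (5.92, SE 0.51, adjusted p = 1.22e-07 by edgeR), and the value was 5.33 without LNCaP replicate 1 and 7.41 without LNCaP replicate 2. Near SERPINA1, the interferon-inducible IFI27L2 had 2, 6 and 7 counts in LNCaP, near the floor, and 124, 108 and 124 counts in LNCaP-enzaR. It rose by 4.47 (SE 0.38, adjusted p = 1.04e-07). The kinase inhibitor PKIA, 3073 kb from HNF4G, fell by 2.07 (SE 0.30, adjusted p = 2.36e-05). The protein-coding neighbours examined between HNF4G and PKIA did not pass the threshold, and the 3 on the other side of HNF4G passed it higher.

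**Figure D5:**
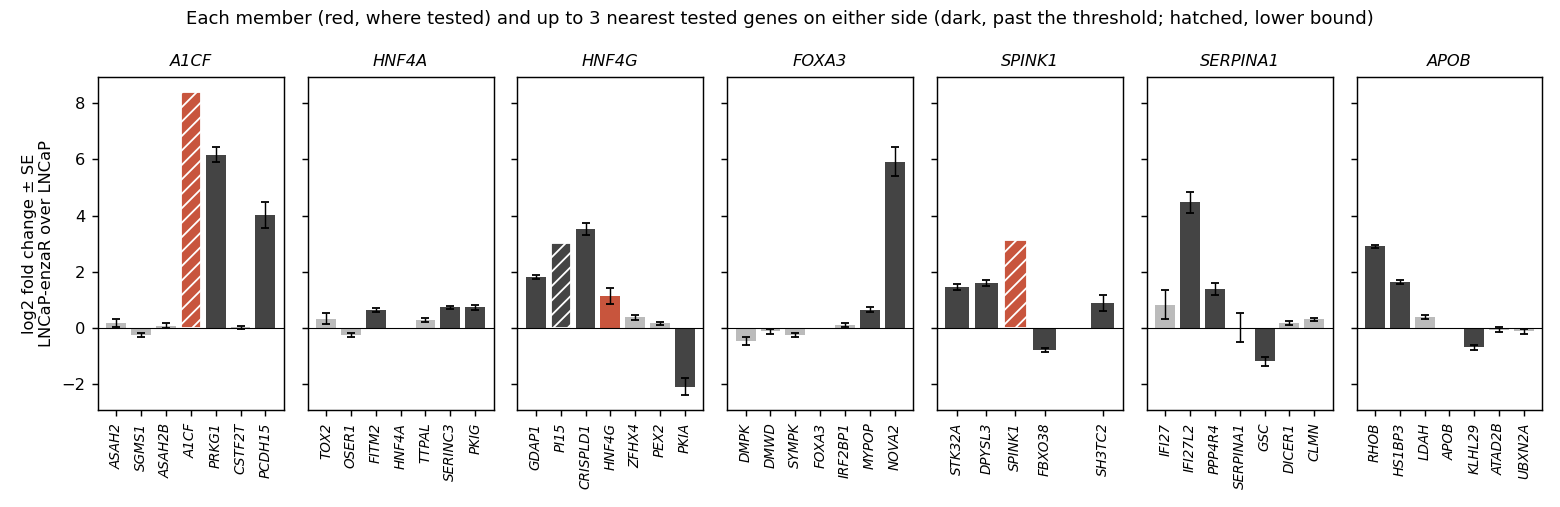
Log2FC with SE of each of the 7 genes (red where tested, hatched for a lower bound) and of neighbours (dark where past the threshold). Neighbours are up to 3 of the nearest tested protein-coding genes with a symbol on either side. PRKG1 and PCDH15 beside A1CF were past the threshold, and the 3 genes on its other side and CSTF2T were not.

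Genes with the pattern most like that of A1CF were sought by the root mean square difference of log2 values over the 6 libraries, after each gene was centred, among 14071 protein-coding genes. The nearest was FHL1, a LIM-domain protein (0.418), which had at most 1 count in LNCaP and 1437 to 1776 counts in LNCaP-enzaR. It was followed by SLC35F3 (0.714), CTNND2 (0.726), SERPINB2 (0.785) and the liver protease TMPRSS6 (0.788). For SPINK1 the nearest were COL27A1 (0.201), DSG4 (0.289), DUSP21 (0.331), AKR1C2 (0.336) and UBE2QL1 (0.381), and for HNF4G they were SLC47A2 (0.147), HIC1 (0.153), PAQR8 (0.179), ALDH1L1 (0.18) and RP11-894J14.5 (0.181). These are descriptions over libraries of which 3 share each line, and for genes at the floor they rest on the prior count of the log2 values.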

How the data were processed

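RNA of 3 LNCaP and 3 LNCaP-enzaR libraries was compared. Per the labels and the submitters' processing notes, which give no roles, the tools included cutadapt 4.5, STAR 2.7.11a and featureCounts 2.0.2 with GRCh38.p13, and the authors deposited raw counts per gene, not normalized. The strand setting is not given in the sources used here, so antisense and overlapping genes are uncertain, as are near-identical copies. Genes were matched by symbol, and coordinates are those of the deposited table. Exon lengths and overlaps were taken from GENCODE release 44, and promoters from RefSeq on GRCh38.p14.

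Both lines were compared with edgeR 4.0.16 under R 4.3.3 (filterByExpr, TMM, robust quasi-likelihood F-test without covariates, Benjamini-Hochberg adjustment over 19711 genes, which held 99.96% of the counts). The threshold required both an adjusted p no higher than 0.05 and a change by 1.5-fold or more, as in the study's methods, and 8425 genes passed it. CPM were scaled by TMM and are given as mean ± SD. For genes with no more than 3 counts in any library of a line, the change is given as a minimum against 3 counts.

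The genes and lists were chosen with earlier results of these data known. From each list and from the neighbouring genes, up to 3 genes with the strongest rise and 3 with the strongest fall among those past the threshold and at 1 CPM or more in a line were named, with partners and relatives of the 8 genes, and for each of the 8 past the threshold the 5 genes most like it. Factors that passed the filter could also be named. PCDH15, CDX2, MTTP and the SPINK relatives were singled out with their values in view. Some genes that the rule covers are not reported here, singly or in the plots of factors and neighbours, but remain in the counts and medians of their lists.

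The alternatives comprised DESeq2 1.42.0, other scalings, other filters, other fold limits, the replicate number as a block and leaving out each library. The test was checked on simulated data.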

Additional observations from a re-analysis of the deposited data

How the results depend on the processing

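Of 688 values of single named or listed genes under the alternatives, 669 kept direction and side of the threshold, 12 lost the call, 2 gained it and 5 turned in sign, and 49 of 54 genes kept both throughout. FOXA1 turned from -0.05 to 0.05 under upper-quartile scaling, which raised the median of all genes by 0.10, and SERPINA1 turned to -0.018 with library totals and ranged from -0.44 to 0.38 with single libraries left out. DGAT2 lost its call under 5 of 13 alternatives (0.53 to 0.69) and NR1I3, counted among the 7 factors that fell, under 7 of 13 (-0.99 to -0.48), and PDX1 gained one under 2. Without a minimum fold change 13074 genes passed in place of 8425, with 18 HNF network factors and 13 lipoprotein genes. At 2-fold 5561 genes passed, with 5 lipoprotein genes and 4 relatives of A1CF and editing enzymes. With at least 10 counts in every library, the calls numbered 1 among the 8 genes (HNF4G), 5 hepatocyte secreted proteins, 5 gut epithelial genes, 7 hepatic metabolism genes and 0 SPINK relatives, with fewer genes of these lists tested. When the replicate number entered as a block, 8212 genes passed, 3 of the 8 genes, 10 factors and 7 lipoprotein genes, and the other list counts did not change. Same-numbered libraries did not deviate together (r = -0.065, -0.00041 and -0.051), so the numbers do not pair the libraries. HNF4A, FOXA3 and APOB had at most 11, 5 and 1 counts in any library, so changes in them are not resolved at this depth.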
